A study of Mus musculus with 8 samples.

Results

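Genes for the nuclear-encoded subunits of the oxidative phosphorylation complexes were examined in the left ventricles (LVs) of mice after angiotensin II (angII) infusion. They were taken by gene name, with patterns for the Ndufa, Ndufb, Ndufc, Ndufs, Ndufv, Sdh, Uqcr, Cox and Atp5 subunits, *Cyc1* and *Cycs*. The patterns matched 85 of 46040 rows of the count table. Of these, 82 were among the 13542 genes that had a CPM (counts scaled to library size) of at least 1 in at least 2 libraries, namely 36 genes of complex I, 4 of complex II, 9 of complex III, 16 of complex IV, 16 of complex V and *Cycs*, the gene of the electron carrier cytochrome c. The other 3 rows were *Cox8c* with 0 to 1 counts per library, *Cox7b2* with 0 to 5 counts, and a second identifier of *Uqcrc1* with 0 counts in every library. *Ndufa4* was placed in complex IV, where its protein is found, and *Atp5s*, which encodes the coupling factor B of ATP synthase, in complex V. Subunits encoded by mitochondrial DNA and those listed under other names were not analysed here.

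All mice received angII by subcutaneous minipump at 0.1 mg/kg/h, and their LVs were taken on day 14 from the animals still alive at that time. They were C57BL/6 males, 5 to 7 months old, and either VEGFR-1 TK-/- mice, which lack the tyrosine kinase domain of VEGFR-1 (the product of *Flt1*) in all tissues, or littermate controls, with 4 libraries for each genotype. The labels disagreed, as titles assigned every library to the genotype opposite to that in its tag and name. Libraries are grouped here by tag and library name as control-tagged and TK-tagged, a log2 fold change sets TK-tagged against control-tagged libraries, and every sign reverses if the titles are right. Counts of *Flt1* over the whole gene were 56.9 to 84.3 normalized CPM in control-tagged and 144 to 169.6 in TK-tagged libraries (log2 fold change 1.19 ± 0.12 SE, adjusted p = 0.00808 in the edgeR quasi-likelihood test), which does not show which libraries lack the kinase exons. The labels describe ribosomal RNA depletion and library names refer to cardiomyocytes, whereas the study's methods describe poly-A selection and LV tissue. Each library held 11449137 to 16239670 counts. Ventricular cardiomyocyte markers were abundant, with at least 14311 counts of each of the 8 genes in every library. The atrial markers *Sln* and *Bmp10* had at most 3 counts, the skeletal muscle markers *Myh2* and *Myh4* and the adipocyte markers *Plin1* and *Lep* had 0. Of the atrial, skeletal muscle and adipocyte lists, 2 of 4, 2 of 6 and 1 of 6 genes passed the filter, with median log2 fold changes of 0.084, 0.092 and -0.020, and their summed levels were at most 5.90, 2.77 and 54.7 normalized CPM.

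Oxidative phosphorylation is the last stage of respiration. Complex I and complex II take electrons from NADH and succinate, complex III passes them through cytochrome c to complex IV, which reduces oxygen, and complex V (ATP synthase) uses the proton gradient built by complexes I, III and IV to make ATP. The heart relies on it for most of its ATP, and cardiomyocytes are packed with mitochondria. Several subunits of complex IV have a form typical of heart and skeletal muscle and a form found in most tissues.

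No subunit gene was called different between the genotypes. Of the 82 genes, 0 reached an adjusted p under 0.1 with an absolute change of at least 1.5-fold, against 1 gene (*Flt1*) among the 13542 genes tested, or 0.00738%. The smallest adjusted p of a subunit gene was 0.453 (edgeR quasi-likelihood test). The changes were small and mostly of one sign, as 68 of 82 log2 fold changes were above 0, with a median of 0.13 against -0.0012 over all genes tested. They ran from -0.36 for *Cox4i2* to 0.56 for *Cox6b2*, which had only 4 to 19 counts per library. At an unadjusted p under 0.05, 15 subunit genes (18.3%) were higher in TK-tagged libraries, where 3.32% of all genes tested were, and 1 (1.22%) was lower, where 5.64% of all genes were. Values of the groups did not overlap for 5 genes that were higher (6.10%, against 2.46% of all genes) and for 1 that was lower (1.22%, against 2.53%). Subunit genes share their libraries and move together within them, so these counts are not those of 82 separate measurements.

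Most subunit genes shifted the same way within 3 libraries, control-tagged replicate 2 and TK-tagged replicates 2 and 3, and the median shift in each of these was larger than the median difference between the genotypes. Subunit genes took 6.05%, 5.18%, 6.76% and 6.03% of all counts in control-tagged replicates 1 to 4, and 5.95%, 6.78%, 6.93% and 5.89% in TK-tagged replicates 1 to 4. The lowest share was that of control-tagged replicate 2, the highest were those of TK-tagged replicates 2 and 3 and control-tagged replicate 3, and the groups overlapped. In control-tagged replicate 2, 79 of 82 genes were below their own mean over the 8 libraries, by a median of -0.40 on the log2 scale, and 68 genes had their lowest value there. In TK-tagged replicates 2 and 3, 80 and 81 genes were above their means, by medians of 0.18 and 0.26. TK-tagged replicate 4 went the other way, with 74 genes below their means by a median of -0.10, as did replicate 1 with 58 genes below by -0.074. The TK-tagged group therefore held 2 libraries with high and 2 with low values.

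**Figure D1:**
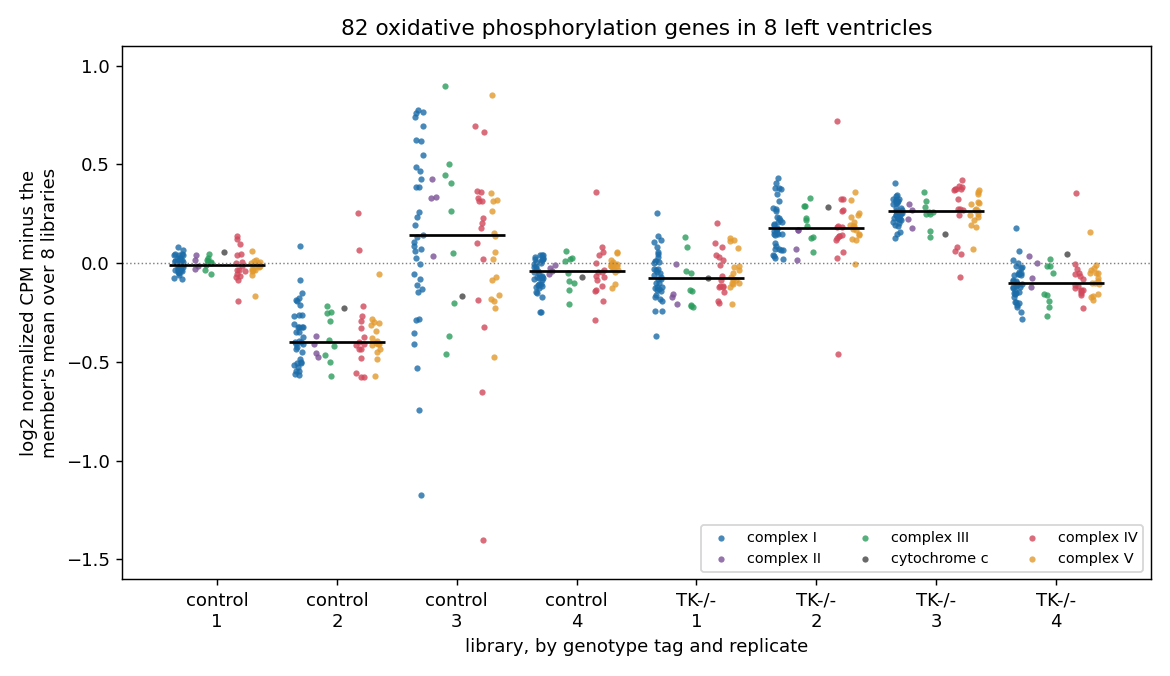
Log2 normalized CPM of each of the 82 subunit genes minus that gene's mean over the 8 libraries (y axis), by library (x axis). Points are genes coloured by complex and black lines are medians. Control-tagged replicate 2 lies low (median -0.40), TK-tagged replicates 2 and 3 lie high, and control-tagged replicate 3 spreads from -1.40 to 0.90.

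Control-tagged replicate 3 was unlike the other libraries, as it split the family. The SD of the 82 deviations was 0.43 there and 0.051 to 0.15 in the other 7 libraries, while over all genes tested it was 0.36 and 0.23 to 0.33. Genes at least 0.5 above their mean numbered 13, led by *Uqcr10* (0.90), *Atp5l* (0.85), *Ndufs7* (0.78), *Ndufa1* (0.77) and *Ndufa9* (0.76). Genes at least 0.5 below it numbered 5, namely *Cox6b2* (-1.40), *Ndufc2* (-1.17), *Ndufb5* (-0.74), *Cox7c* (-0.65) and *Ndufab1* (-0.53). Both directions occurred within complexes, with 23 genes of complex I above and 13 below their means, and 9 of complex V above and 7 below. All 4 genes of complex II were above. The 41 subunit genes with the higher GC content in their principal transcript had a median deviation of 0.26 in this library and the 41 with the lower GC content 0.050. Across genes, the correlation of GC content with the deviation was 0.34 over the 82 subunit genes and 0.33 over 13513 genes tested, in which genes share the library and are not independent replicates. Over the subunit genes it was as large in other libraries, from -0.36 in TK-tagged replicate 4 to 0.36 in control-tagged replicate 1. Over all genes tested, it ran from -0.19 to 0.084 in these other libraries. The part of GC content in the split was not tested.

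This library set the width of the fold changes. Without control-tagged replicate 3, 81 of 82 genes had a log2 fold change above 0, the median was 0.21, and the SD over genes fell from 0.16 to 0.079. The 1 gene below 0 was *Cox4i2*. Then 9 genes were higher at an unadjusted p under 0.05 in place of 15. Of the 16 genes named at that level with all libraries, 7 kept it, namely *Cox8b*, *Uqcrb*, *Cox4i2*, *Atp5s*, *Ndufa5*, *Ndufab1* and *Ndufv3*. Without control-tagged replicate 2, the library with the low values, 46 of 82 genes were above 0 with a median of 0.048, and 6 genes were higher at that level. Without TK-tagged replicate 2 or 3 the median was 0.084 or 0.071, with 2 or 3 such genes. Of all genes tested, 1.82% or 2.26% were higher at that level in these fits. The share was 2.98% without control-tagged replicate 3 and 3.19% without control-tagged replicate 2. With control-tagged replicates 2 and 3 both left out, 79 genes were above 0 with a median of 0.11 and 0 genes reached an unadjusted p under 0.05 in either direction (edgeR). In that fit, 1.59% of all genes tested were higher and 2.33% lower at that level. *Cox8b* and *Uqcrb* were the 2 subunit genes with an unadjusted p under 0.05 in each of the 8 fits that left out 1 library. The share of all genes tested that did so was not computed, so this count has no background beside it. The medians of the complexes moved with the same libraries. From the fit without control-tagged replicate 2 to that without replicate 3, the median of complex I ran from 0.053 to 0.22, that of complex III from 0.026 to 0.19 and that of complex IV from 0.0034 to 0.25. Complex V ranged from 0.096 without control-tagged replicate 2 to 0.25 without TK-tagged replicate 4.

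**Figure D2:**
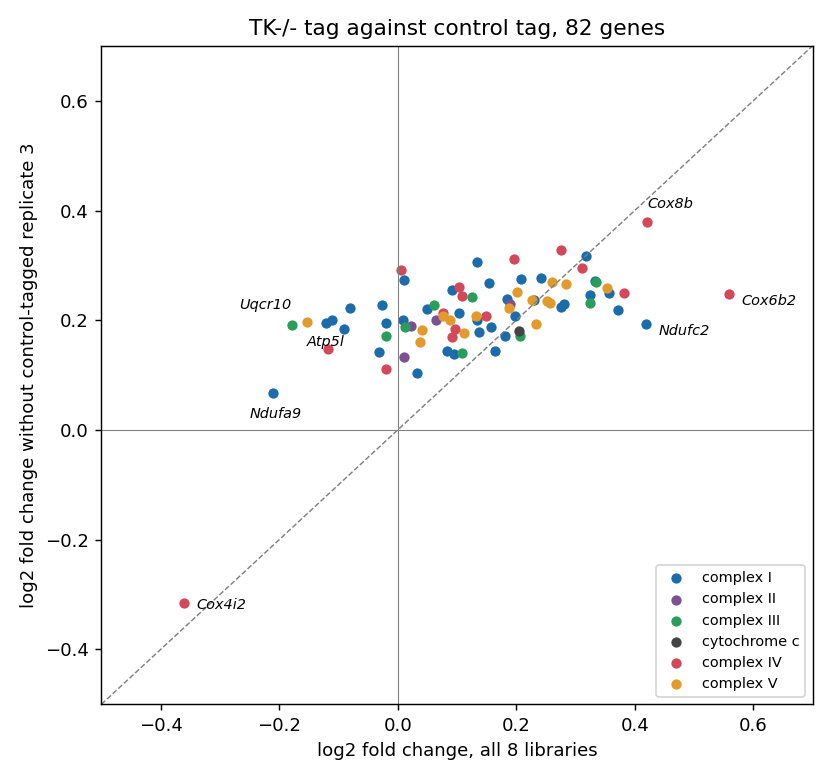
Log2 fold change of each of the 82 subunit genes between TK-tagged and control-tagged libraries with all 8 libraries (x axis) and without control-tagged replicate 3 (y axis), coloured by complex, with the dashed line marking equal values. With that library left out, 81 genes lie above 0 in a narrow band (SD 0.079), and *Cox4i2* lies apart at -0.32.

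Ventricular cardiomyocyte markers were low in control-tagged replicate 2 and high in TK-tagged replicates 2 and 3, as the subunit genes were. The 8 markers had a median deviation of -0.41 in control-tagged replicate 2, 0.14 in TK-tagged replicate 2 and 0.26 in TK-tagged replicate 3, and between -0.023 and 0.044 in the other 5. In 3 of these 5, control-tagged replicates 3 and 4 and TK-tagged replicate 1, the median of the subunit genes (0.14, -0.040 and -0.074) had the opposite sign. The markers also split in control-tagged replicate 3, from -0.40 for *Tnni3* to 0.39 for *Myl3* around a median of -0.0089. In TK-tagged replicate 2, *Myl2* was below its mean (-0.15). Between the groups, 7 of the 8 had a log2 fold change above 0, with a median of 0.18, close to that of the subunit genes. Their summed level was 54389 to 80590.4 normalized CPM in control-tagged and 68965 to 90604 in TK-tagged libraries.

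Markers of other cell types lay on the other side. The medians were -0.29 for 5 endothelial genes (summed level 1229 to 1559 in control-tagged and 1122 to 1240.2 normalized CPM in TK-tagged libraries), with 4 of 5 below 0, and -0.19 for 6 fibroblast genes (1055 to 1548 and 567 to 1316), with 6 of 6 below 0. Leukocyte genes had a median of -0.32 with 5 of 6 below 0 (327 to 428 and 219 to 330.2). Smooth muscle and pericyte genes had a median of -0.22 with 3 of 4 below 0 (987 to 1458 and 674 to 1108), and red blood cell genes one of -0.37 with 5 of 5 below 0 (309 to 766 and 359 to 601). Control-tagged replicate 2 had the highest sums of fibroblast, leukocyte and red blood cell genes, and TK-tagged replicate 3 the lowest of fibroblast and leukocyte genes. The sums of endothelial and of smooth muscle and pericyte genes were highest in control-tagged replicate 3 and lowest in TK-tagged replicate 2. That of red blood cell genes was lowest in control-tagged replicate 1 and, within the TK-tagged group, highest in replicate 2. Of these 26 genes, 5 had an unadjusted p under 0.05, all lower in TK-tagged libraries, and 0 were called. Over all genes tested, 5.64% were lower and 3.32% higher at that level, and 1 was called. In RNA of whole tissue, fewer cells of a type and less RNA per cell cannot be told apart, and the part of cell composition in the values of the subunit genes was not tested.

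Levels spanned more than 3 orders of magnitude when set per kb of annotated exon, the scale on which genes are compared here. The highest were *Cox6a2* of complex IV (2678 normalized CPM per kb of exon, mean over 8 libraries), *Atp5a1* and *Atp5b*, the alpha and beta subunits of the catalytic F1 head of ATP synthase (1822 and 1553), and *Cox4i1* of complex IV (1607). The same 4 genes were highest per kb of the principal transcript, in another order, with 3434 for *Atp5b*, 3344 for *Cox4i1*, 2678 for *Cox6a2* and 2311 for *Atp5a1*. The highest genes of the other complexes per kb of exon were *Ndufb10* (718) and *Ndufb9* (679) in complex I, *Sdhd* (480.5) and *Sdhb* (479) in complex II and *Uqcr10* (1016) and *Uqcr11* (895) in complex III, and *Cycs* was at 152. The lowest were *Cox6b2* (0.942) and *Atp5s* (9.87). The exon length counts every annotated exon, which lowers genes with long minor transcripts, such as *Ndufb2* with 16.9 per kb of exon and 209 per kb of principal transcript. A single gene varied 1.36 to 6.27-fold between its highest and lowest library, with a median of 1.70-fold.

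**Figure D3:**
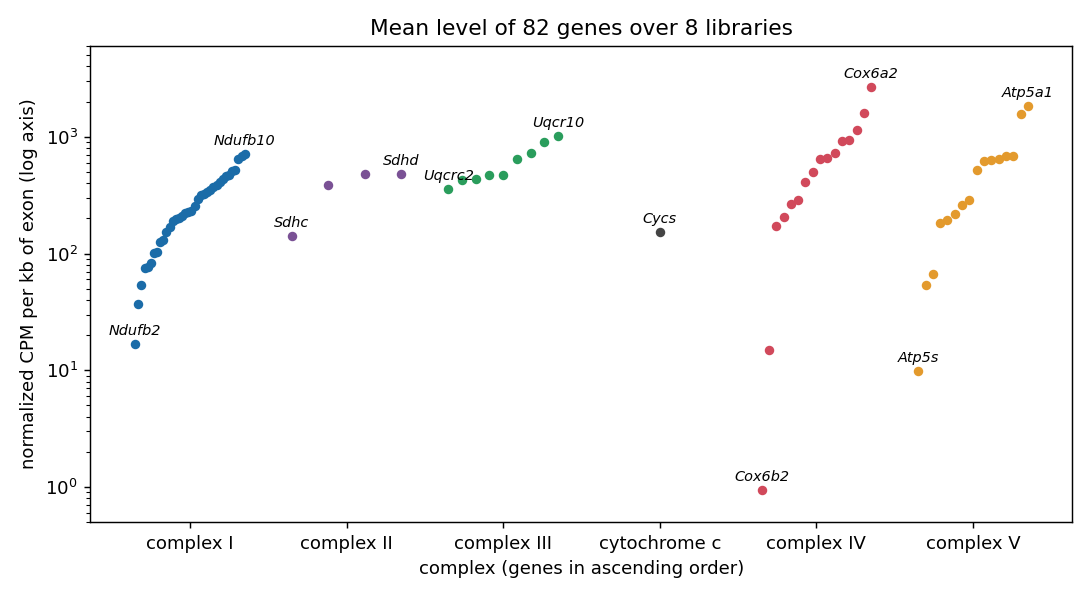
Mean normalized CPM per kb of annotated exon over 8 libraries (y axis, log scale) for the 82 subunit genes, ordered within each complex (x axis), with the highest and lowest gene of each named. *Cox6a2* of complex IV is highest at 2678 and *Cox6b2* lowest at 0.942.

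Complex I held 7 core subunits, which carry the flavin and iron-sulfur centers, and 29 accessory subunits. Its median log2 fold change was 0.14, with 28 of 36 genes above 0, 7 higher at an unadjusted p under 0.05 (19.4%) and 0 lower. The summed level was 15126, 11647, 18347 and 14571 normalized CPM in control-tagged replicates 1 to 4 and 14298, 17084, 18135 and 14074 in TK-tagged replicates 1 to 4. Core and accessory subunits had medians of 0.13 and 0.14. The summed levels overlapped between groups, with control-tagged replicate 3 the highest of all and replicate 2 the lowest.

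Among core subunits, *Ndufv2*, which encodes an iron-sulfur protein of the NADH-oxidizing module, had normalized CPM of 423, 401, 336 and 442 in control-tagged and 459.8, 580.2, 520.5 and 446 in TK-tagged libraries. Its groups did not overlap, although the highest control-tagged value and the lowest TK-tagged value were close (log2 fold change 0.32 ± 0.12 SE, unadjusted p = 0.0229, adjusted p = 0.506, edgeR). The accessory subunit gene *Ndufb5* also did not overlap, at 367, 349, 221 and 381 against 406, 479, 433 and 386. Control-tagged replicate 3 was far below the other 7 libraries here, and the log2 fold change of 0.37 ± 0.16 (unadjusted p = 0.0388) became 0.22 without it. *Ndufc2* (chr7:97400003-97407802 of GRCm38, plus strand), another accessory subunit gene, had the highest log2 fold change of complex I, 0.42 ± 0.22 (unadjusted p = 0.0849, edgeR). Its values were 115, 118, 49.4 and 115 in control-tagged and 133, 151, 122 and 126 in TK-tagged libraries, with no overlap. Control-tagged replicate 3 was the low one, and the log2 fold change was 0.19 without it. Exact 2-sided permutation tests of 4 against 4 libraries gave p = 0.0286 for each of these 3 genes, the smallest value that such a design can reach. Any gene whose groups do not overlap has this p, so it adds nothing to the absence of overlap. Of all genes tested, 2.46% were higher in TK-tagged libraries without overlap.

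The other genes of complex I with an unadjusted p under 0.05 were accessory subunits whose groups overlapped. They were *Ndufab1*, the mitochondrial acyl carrier protein (0.36 ± 0.13, unadjusted p = 0.0217, edgeR), *Ndufa5* (0.33 ± 0.12, unadjusted p = 0.0209), *Ndufv3* (0.32 ± 0.13, unadjusted p = 0.0304), *Ndufb6* (0.28 ± 0.11, unadjusted p = 0.0277) and *Ndufc1* (0.28 ± 0.12, unadjusted p = 0.0345). At the other end stood *Ndufa9*, an accessory subunit gene with 681, 502, 1119 and 627 normalized CPM in control-tagged and 512, 671, 772 and 577 in TK-tagged libraries. Control-tagged replicate 3 was well above all other libraries, and the log2 fold change of -0.21 ± 0.22 turned to 0.067 without it. The abundant *Ndufb10* and *Ndufb9* had log2 fold changes of -0.090 ± 0.23 and 0.10 ± 0.16, within their errors, and that of *Ndufb10* likewise turned from below to above 0 (0.18).

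Complex II, succinate dehydrogenase, had a median log2 fold change of 0.043, with 4 of 4 genes above 0 and 0 with an unadjusted p under 0.05. The median rested on single libraries, as it was -0.082 without control-tagged replicate 2, -0.033 without TK-tagged replicate 3 and 0.19 without control-tagged replicate 3. *Sdhb*, the iron-sulfur subunit, had normalized CPM of 1067, 771, 1334 and 1019 in control-tagged and 949, 1189, 1273 and 973 in TK-tagged libraries. The control-tagged group held both the lowest and the highest value (log2 fold change 0.064 ± 0.17). The membrane anchor genes *Sdhc* and *Sdhd* had log2 fold changes of 0.19 ± 0.12 and 0.010 ± 0.15, and without control-tagged replicate 2 those of *Sdhb* and *Sdhd* were below 0 (-0.058 and -0.11).

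Complex III had a median log2 fold change of 0.11, with 7 of 9 genes above 0 and 2 higher at an unadjusted p under 0.05 (22.2%). *Uqcrb* (chr13:66900617-66905378, minus strand), a small subunit on the matrix side, had normalized CPM of 363, 304, 288 and 377 in control-tagged and 395, 456, 453 and 377 in TK-tagged libraries. The groups did not overlap, but TK-tagged replicate 4 stood just above the highest control-tagged library. The means were 333 ± 43.7 and 420.1 ± 40.1 (SD, n = 4 each). The log2 fold change was 0.34 ± 0.12 (unadjusted p = 0.0167, adjusted p = 0.486 in edgeR), and it ranged from 0.27 to 0.40 when each library was left out in turn. *Uqcrh*, the hinge protein next to cytochrome c1, had a similar log2 fold change (0.32 ± 0.13, unadjusted p = 0.0323, edgeR) with overlapping groups. Its lowest value was in control-tagged replicate 3, and without that library the log2 fold change was 0.23 (unadjusted p = 0.0738, edgeR). *Uqcr10*, which encodes a small subunit and had the lowest log2 fold change of complex III, was at 587, 381, 1058 and 492 normalized CPM in control-tagged and 489.7, 590.1, 675 and 472 in TK-tagged libraries (chr11:4701973-4704342, minus strand). Control-tagged replicate 3 was the highest of all 8, by over 1.5-fold above the next, and the log2 fold change of -0.18 ± 0.26 became 0.19 without it. *Uqcr11* had 0.13 ± 0.16. *Cycs*, which carries electrons from complex III to complex IV, had 535, 439.8, 459.6 and 491 normalized CPM in control-tagged and 488, 627, 571 and 532 in TK-tagged libraries, which overlapped (log2 fold change 0.20 ± 0.11, unadjusted p = 0.0982, edgeR).

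Complex IV, cytochrome c oxidase, contained the highest and the lowest log2 fold change of all subunit genes, with a median of 0.11, 13 of 16 genes above 0, 3 higher (18.8%) and 1 lower (6.25%) at an unadjusted p under 0.05. *Cox8b* (chr7:140898945-140900446 of GRCm38, minus strand), the form of subunit 8 found in heart and skeletal muscle, had the smallest p of the family. Its normalized CPM were 321, 249.9, 266 and 323 in control-tagged and 383, 418, 433 and 318 in TK-tagged libraries, or 290.0 ± 37.4 and 388 ± 51.1 (SD, n = 4 each). TK-tagged replicates 1 to 3 were above all control-tagged libraries, and replicate 4 was within them. The log2 fold change was 0.42 ± 0.13 (unadjusted p = 0.00694, adjusted p = 0.453 in edgeR, exact permutation p = 0.0857), and it stayed between 0.36 and 0.50 when each library was left out in turn. *Cox7c* (0.38 ± 0.16, unadjusted p = 0.0312) and *Cox6c* (0.31 ± 0.14, unadjusted p = 0.0466, edgeR), which encode small subunits, were also higher at an unadjusted p under 0.05. Without control-tagged replicate 3, the lowest library of *Cox7c*, their log2 fold changes were 0.25 and 0.30 (unadjusted p = 0.0630 and 0.0743, edgeR).

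*Cox4i2* was the 1 subunit gene lower in TK-tagged libraries at an unadjusted p under 0.05. It lies at chr2:152754173-152765037 on the plus strand and encodes the form of subunit 4 that replaces *Cox4i1* in lung and in oxygen-sensing and vascular smooth muscle cells, and it was weakly expressed, with 94 to 214 counts per library. Normalized CPM were 12.4, 13.8, 14.4 and 11.99 in control-tagged and 10.6, 8.34, 10.98 and 10.9 in TK-tagged libraries, without overlap, and TK-tagged replicate 2 was the lowest. The log2 fold change was -0.36 ± 0.13 (unadjusted p = 0.0172, adjusted p = 0.486 in edgeR). Of the 4 smooth muscle and pericyte genes, *Rgs5* had a log2 fold change of -0.48 ± 0.17, *Acta2* -0.43 ± 0.36 (0.039 without control-tagged replicate 3), *Myh11* -0.019 ± 0.17 and *Tagln* 0.0014 ± 0.14, and the part of vascular cells in the value of *Cox4i2* was not tested. The common form *Cox4i1*, by contrast, had 2498, 1646, 3915 and 2314 in control-tagged and 2102, 2464, 2926 and 2065 in TK-tagged libraries, with control-tagged replicates holding both extremes (-0.12 ± 0.23).

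Complex V had a median log2 fold change of 0.19, with 15 of 16 genes above 0 and 3 higher at an unadjusted p under 0.05 (18.8%). *Atp5s*, the coupling factor B, had normalized CPM of 17.7, 19.1, 14.3 and 19.7 in control-tagged and 21.7, 25.6, 20.9 and 22.2 in TK-tagged libraries. The groups did not overlap, with control-tagged replicate 3 the lowest (log2 fold change 0.35 ± 0.12, unadjusted p = 0.0144, adjusted p = 0.476, edgeR). *Atp5j* of the peripheral stalk (0.25 ± 0.11, unadjusted p = 0.0450) and *Atp5j2* of the membrane part (0.28 ± 0.12, unadjusted p = 0.0375, edgeR) overlapped between groups. The abundant genes of the catalytic head had log2 fold changes within their errors. *Atp5b* had 6369.6, 4824, 7826 and 6492 normalized CPM in control-tagged and 6073, 7176, 7749 and 6122 in those tagged TK. Log2 fold changes were 0.088 ± 0.18 for *Atp5b* and 0.038 ± 0.17 for *Atp5a1*. Both control-tagged extremes, replicates 2 and 3, lay outside the TK-tagged range for *Atp5b*. The 5 genes of the head had a median of 0.088, and the 3 genes for subunit c of the rotor ring one of 0.23. *Atp5l*, a membrane subunit gene, was the 1 gene of complex V below 0. It had 324, 224, 601 and 309 in control-tagged and 289, 332, 394 and 296 in TK-tagged libraries, so that control-tagged replicate 3 was far above the others, and its log2 fold change of -0.15 ± 0.25 became 0.20 without that library.

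**Figure D4:**
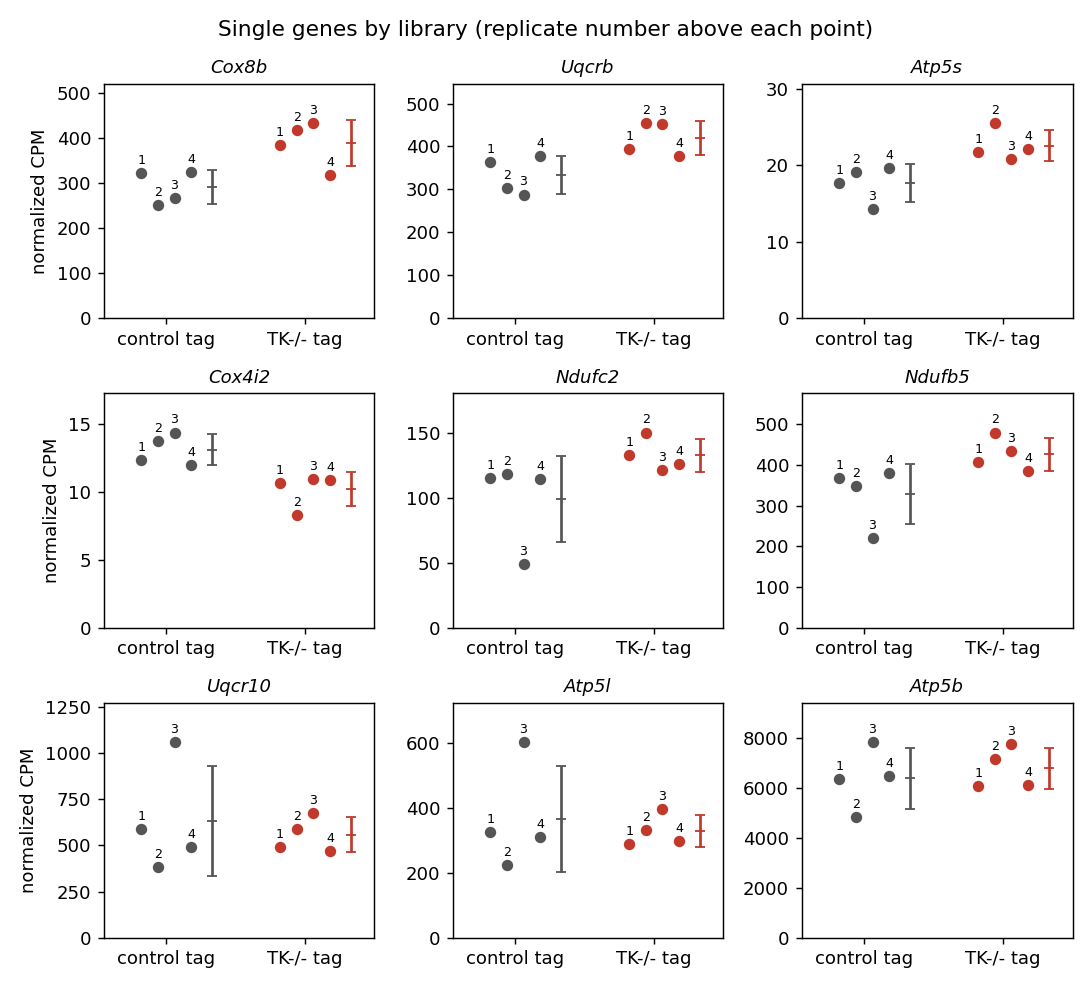
Normalized CPM (y axis, from 0) of 9 subunit genes in each library (points, with replicate numbers) by genotype tag (x axis), with the mean ± SD of 4 libraries beside them. *Ndufc2* and *Ndufb5* are lowest and *Uqcr10* and *Atp5l* highest in control-tagged replicate 3. The groups of *Ndufc2*, *Ndufb5*, *Uqcrb*, *Atp5s* and *Cox4i2* do not overlap, and those of *Uqcr10*, *Atp5l*, *Cox8b* and *Atp5b* do.

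The balance between tissue forms overlapped between the groups. Shares were taken within each set of paralogs from counts per kb of exon. *Cox6a2*, the heart and muscle form of subunit 6A, made up 93.5% ± 0.624 of *Cox6a1* plus *Cox6a2* in control-tagged and 94.3% ± 0.729 in TK-tagged libraries (SD, n = 4 each). *Cox7a1*, the muscle form of subunit 7A, made up 68.4% ± 2.77 and 70.7% ± 0.555 against *Cox7a2*. For subunit 8, *Cox8b* made up 76.05% ± 3.41 and 79.3% ± 1.62 against *Cox8a*. The ranges of the groups overlapped in each case, and for *Cox7a1* and *Cox8b* the lowest share was that of control-tagged replicate 3 (64.4% and 72.3%). The muscle form predominated in all 8 libraries for subunits 6A, 7A and 8.

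The minor forms were scarce. *Cox4i2* made up 0.662% to 1.62% of *Cox4i1* plus *Cox4i2*, and *Cox6b2*, known mainly from testis, 0.0190% to 0.123% of *Cox6b1* plus *Cox6b2*. The 3 genes *Atp5g1*, *Atp5g2* and *Atp5g3* encode the same mature subunit c of ATP synthase with different import sequences. *Atp5g3* made up 63.7% to 69.03%, *Atp5g1* 24.7% to 28.9% and *Atp5g2* 6.23% to 7.53% of their sum. *Atp5g3* was the highest on this scale in every library, whereas by counts alone, without length, *Atp5g1* had 43.02% to 48.4% and *Atp5g3* 47.4% to 53.3%. Per kb of principal transcript, *Atp5g3* had 77.04% to 81.01%, *Atp5g1* 9.90% to 11.9% and *Atp5g2* 9.09% to 11.1%, and in TK-tagged replicate 3 *Atp5g2* was above *Atp5g1* (11.1% and 10.7%). The shares of both thus depended on the length used. On that scale *Cox4i2* made up 0.346% to 0.851% and *Cox6b2* 0.0333% to 0.214%. Reads of such near-identical genes and their pseudogenes may have been split between rows, since the counting of reads with several alignments is not stated, so these shares are uncertain.

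**Figure D5:**
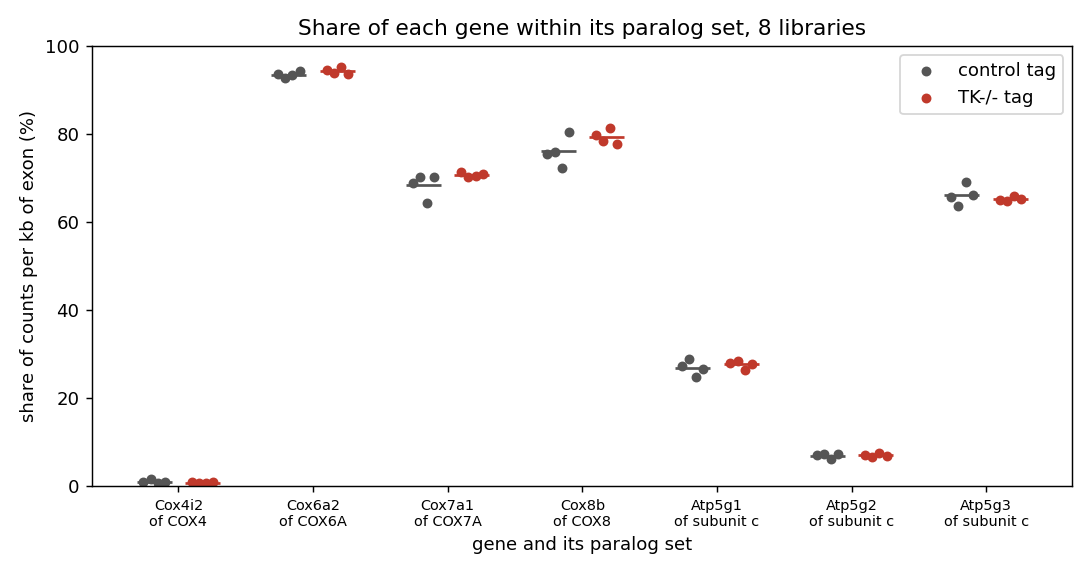
Share of each gene within its set of paralogs (y axis, % of counts per kb of exon) in each library (points) by genotype tag, with lines at group means of 4 libraries. *Cox6a2*, *Cox7a1* and *Cox8b* predominate over their paralogs in all 8 libraries, and the points of both groups overlap for every gene shown.

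Motifs of NRF1 and YY1, known regulators of respiratory chain genes, were found in a larger share of the promoters of subunit genes than of promoters at large. RefSeq windows from 250 bases before to 50 bases after the gene start (GRCm38.p6) were matched for 68 of the 82 genes. NRF1 binds GCGCATGCG, which was found on either strand in 9 of the 68 windows (13.2%), against 1.95% of the windows of all 27025 genes and 3.89% of those of 10459 genes tested here. YY1 binds AAGATGGCG, found in 7 windows (10.3%) against 1.64% of all and 3.44% of tested genes. The ETS core CCGGAAG, bound by NRF2/GABP, was found in 16 windows (23.5%) against 9.93% and 19.4%, and the estrogen-related receptor motif TCAAGGTCA in 2 (2.94%) against 0.466% and 0.325%. At least 1 of the 4 was found in 28 windows (41.2%), against 13.1% of all and 25.1% of tested genes. These are matches of letters, given as a description, and binding was not measured here.

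Stretches of 6 promoters are shown as examples from complexes I, III, IV and V and cytochrome c, with the matched motif in capitals. They were chosen after the matches were seen, from genes whose motif lies before a start that the GENCODE annotation shares. Outside the stretches shown, *Uqcr11* also had a match to the NRF1 motif and *Atp5k* a match to the ETS core. Each is written 5′ to 3′ on the strand of its gene, with coordinates of GRCm38.p6. The stretches come from chr17:56717677-56717736 on the plus strand for *Ndufa11* (a membrane accessory subunit of complex I), and from the minus strand for *Uqcr11* (chr10:80406856-80406912), *Cycs* (chr6:50566597-50566655), *Cox6b1* (chr7:30626115-30626167), *Atp5g3* (chr2:73911345-73911403) and *Atp5k* (chr5:108434415-108434474).
Ndufa11 with an NRF1 motif: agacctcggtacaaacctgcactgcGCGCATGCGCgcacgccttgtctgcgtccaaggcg
Uqcr11 with an ETS core: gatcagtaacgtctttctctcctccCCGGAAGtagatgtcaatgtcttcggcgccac
Cycs with an NRF1 motif: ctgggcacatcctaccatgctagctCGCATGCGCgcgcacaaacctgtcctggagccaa
Cox6b1 with an ETS core: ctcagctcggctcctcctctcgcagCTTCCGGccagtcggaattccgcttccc
Atp5g3 with an estrogen-related receptor motif: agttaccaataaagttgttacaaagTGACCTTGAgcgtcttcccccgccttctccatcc
Atp5k with an NRF1 motif: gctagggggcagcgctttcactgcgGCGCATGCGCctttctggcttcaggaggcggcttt
In *Ndufa11* and *Atp5k* the capitals are 1 base longer than the searched letters, because the motif is nearly a palindrome and matched on both strands at neighbouring positions. The log2 fold changes of *Ndufa11*, *Uqcr11*, *Cox6b1*, *Atp5g3* and *Atp5k* were 0.095 ± 0.12, 0.13 ± 0.16, 0.092 ± 0.14, 0.19 ± 0.14 and 0.20 ± 0.14, and that of *Cycs* is given above.

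Assembly factors, which build the complexes without being part of them, had a median change close to that of the subunits. Of 54 listed genes, 49 passed the filter, 40 of these had a log2 fold change above 0 and the median was 0.12. At an unadjusted p under 0.05, 6 (12.2%, against 3.32% of all genes tested) were higher and 0 were lower (against 5.64%). The 6 were *Ndufaf5* and *Tmem126b* for complex I, *Uqcc1* and *Uqcc2* for complex III and *Cox17* and *Cmc1* for complex IV. Each of the 6 had its lowest value in control-tagged replicate 3. Their log2 fold changes ran from 0.24 (*Uqcc1*) to 0.54 (*Cox17*) with all libraries. Without that library they ran from 0.17 (*Uqcc1*) to 0.33 (*Cox17*). The 49 assembly factors as a set went in both directions in that library. Their log2 deviations from their own means ran from -1.06 (*Cox17*) to 0.74 (*Sco2*), with a median of -0.13. None of the 49 was called. *Ndufaf5*, which modifies a core subunit of complex I, had normalized CPM of 22.5, 20.8, 19.2 and 21.5 in control-tagged and 25.6, 31.2, 26.6 and 23.1 in TK-tagged libraries. Its groups did not overlap, with all 4 control-tagged values below 23.1 (log2 fold change 0.34 ± 0.11, unadjusted p = 0.00981, adjusted p = 0.464, edgeR). Subunit genes are short, with a median principal transcript of 786 bases against 2867 over genes tested, and the 1078 tested genes with a principal transcript under 1 kb had a median log2 fold change of 0.053.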

How the data were processed

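The authors trimmed reads of 8 LV libraries (Trim Galore 0.4.4), aligned them to GRCm38 (STAR 2.5.4b) and counted them per gene with featureCounts, per the labels' processing notes and the study's methods, and deposited whole-number counts without normalization. The library kit is stranded, but the counting of strand and of reads with several alignments is not given in the sources used here, so reads of paralogs, pseudogenes and antisense genes may enter a count. All 8 count columns were used. Symbols are those of the table. Coordinates, exon lengths and principal transcripts came from GENCODE M21 (GRCm38), in which 84 of 85 identifiers were found.

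The filter kept genes reaching a CPM of 1 in 2 or more libraries. Counts were scaled with TMM factors (0.917 to 1.12) and the quasi-likelihood test was that of edgeR 4.0.16 (R 4.3.3, limma 3.58.1), with Benjamini-Hochberg adjustment over all 13542 genes. Calls needed an adjusted p under 0.1 and an absolute change of at least 1.5-fold, after the study's methods. Normalized CPM values are counts per TMM-adjusted library size, with a prior count of 2 for their log2. A 2-sided exact permutation test with 70 arrangements of the libraries was added for single genes, and its smallest p is 0.0286. P-values measure the spread between these libraries, which may in part be technical where libraries are not separate mice. Libraries within a group differed by more than sampling noise (chi-square per degree of freedom 6.77 to 49.9). Depth (11449137 to 16239670 counts per library) gives an error from counting that matters for *Cox6b2*, *Cox4i2* and *Atp5s*.

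Named genes were, per complex, the 2 with the highest level per kb of exon, those with the highest and lowest log2 fold change, genes with an unadjusted p under 0.05, paralog sets, and assembly factors with an unadjusted p under 0.01. Genes with large deviations in 1 library and the other 5 assembly factors with an unadjusted p under 0.05 were named after their values were seen. Members and lists were chosen with earlier results of these data known. Alternatives were the likelihood ratio test of the study's methods, DESeq2 1.42.0, robust dispersion, RLE factors, total counts, no filter, filterByExpr, the replicate number as a block, and each library left out. Leaving out control-tagged replicates 2 and 3 together and other lengths for paralog shares were added after the data were seen. Motifs and figures were made in Python 3.11.15.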

Additional observations from a re-analysis of the deposited data

Results flagged for a closer look

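The 2 groups of 4 libraries were taken for each of the 40 subunit genes named by rule and for 2 summed values, 84 groups in all. In 3 of the 84, 1 library lay far from the other 3 by Dixon's criterion, which chance meets in about 1 of 20 groups. *Atp5g3*, which encodes subunit c of ATP synthase, was at 1012 normalized CPM in control-tagged replicate 2 and at 1348 to 1364 in the other 3 control-tagged libraries. *Ndufc2* was at 49.4 normalized CPM in control-tagged replicate 3 and at 115 to 118 in the others of its group. *Cox4i2* was at 8.34 normalized CPM in TK-tagged replicate 2 and at 10.6 to 10.98 in the others of its group.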

How the results depend on the processing

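No subunit gene and no assembly factor was called under any of the 17 alternatives, including the likelihood ratio test (lowest adjusted p of a subunit gene 0.199) and DESeq2 (0.157). Over all genes, the likelihood ratio test called 53 of 13542 and DESeq2 called 32 of 13542. The fit with no filter called 23 of 22597, and the other alternatives called 0 to 3. Under the 8 alternatives that kept all libraries, 10 to 17 subunit genes were higher and 1 was lower at an unadjusted p under 0.05. Of all genes tested, 2.27% to 3.43% were higher and 4.39% to 5.80% lower in these fits. Leaving out 1 library at a time gave 2 to 20 higher (6 without control-tagged replicate 2, 9 without replicate 3, 2 without TK-tagged replicate 2 and 3 without replicate 3) and 0 to 1 lower (0 without TK-tagged replicate 2). Of all genes tested, 1.82% to 3.97% were higher and 3.43% to 6.47% lower in these fits, with 1.82% higher without TK-tagged replicate 2. With control-tagged replicates 2 and 3 both left out, 0 were higher and 0 lower, where 1.59% and 2.33% of all genes tested were.

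No source says that the replicate numbers pair the libraries. Over all genes, same-numbered libraries deviated from their group means with correlations of -0.029, 0.029, 0.34 and -0.055 for numbers 1 to 4, which did not meet the criterion for pairing (over 0.1 for every number), and over the 82 subunit genes with 0.40, 0.38, 0.80 and 0.14, all over 0.1. In both sets of genes 2 of the 8 libraries, those numbered 3, correlated best with the library of their own number in the other group. The fit with the replicate block gave 10 subunit genes higher and 1 lower at an unadjusted p under 0.05, 0 called, and a median log2 fold change of 0.14. Of all genes tested in it, 3.43% were higher and 5.76% lower at that level, and 1 was called.

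Signs of 12 of the 40 subunit genes named by the rule given above turned when libraries were left out. *Ndufs7* and *Ndufa1*, named for their deviations, also turned. Their log2 fold changes were -0.12 and -0.11 with 8 libraries and 0.19 and 0.20 without control-tagged replicate 3. Leaving out 1 library at a time moved the log2 fold change of *Atp5a1* between -0.072 and 0.16, *Atp5b* between -0.025 and 0.20, *Atp5l* between -0.33 and 0.20, *Cox4i1* between -0.28 and 0.15, *Cox6a1* between -0.11 and 0.11, *Cox7a2* between -0.011 and 0.26, *Ndufa9* between -0.35 and 0.067, *Ndufb10* between -0.25 and 0.18, *Ndufb9* between -0.0080 and 0.21, *Sdhb* between -0.058 and 0.20, *Sdhd* between -0.11 and 0.13 and *Uqcr10* between -0.36 and 0.19. For each of the 12, the lowest value was that without control-tagged replicate 2 and the highest that without control-tagged replicate 3. With both left out, *Atp5l* was at 0.050, *Cox6a1* at 0.029, *Ndufb10* at 0.034 and *Uqcr10* at 0.045, while *Ndufa9* (-0.048) and *Cox4i1* (-0.011) stayed below 0; these 6 were below 0 with 8 libraries. For *Cox6b2*, with 4 counts in 1 library, depth limits the comparison.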
